A study of Mus musculus with 48 samples.

Results

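The livers compared here came from mice whose light schedule had been advanced, and the comparison sets those taken at zeitgeber time 20 (ZT20) against those taken at ZT8 of the same arm. Its members are 8 of the 48 liver RNA libraries of the study, 4 titled phase shift ZT20 and 4 titled phase shift ZT8, and every expressed gene. Of 54532 genes in the count table, 14555 passed the filter on low counts. All mice were male wild-type (WT) C57BL/6 animals of 8 to 10 weeks kept under 12 h of light and 12 h of dark. The phase-shifted arm (24 libraries) had 1 advance of the light cycle by 6 h as a model of jet lag, and the control arm (24 libraries) stayed on a stable cycle. Both arms were sampled at 4 h intervals between day 6 and day 7 after the shift, which gives 6 times with 4 libraries each. The treatment field of the labels is identical for the 48 samples, so the arm was read from the titles. Whether ZT in the shifted arm runs from the new lights-on is not stated, and the times are used as labelled. The labels do not say in words that each library is a separate animal, so p-values measure the spread between these samples, which may be partly technical. By the label ZT8 lies in the light phase and ZT20 in the dark phase, when mice feed.

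Liver cells carry a circadian clock in which CLOCK and BMAL1, the product of Arntl, activate transcription through E-boxes, and their targets of the Per and Cry families repress them. A second loop links BMAL1 to REV-ERBα and REV-ERBβ, the products of Nr1d1 and Nr1d2, which repress genes through sites that the ROR activators also bind. Clock output in the liver is carried by the PAR bZIP factors DBP, TEF and HLF and their antagonist NFIL3, and feeding adds daily cycles of lipid, glucose and amino acid metabolism.

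The 8 libraries had similar depth, with 16693751 to 17625159 counts per library at ZT20 and 16651100 to 17684168 at ZT8, and a count of 0 allows up to 0.170 to 0.180 CPM, the count rescaled by library size, for counting error alone. Mitochondrial transcripts took 6.36 to 7.01% of the counts at ZT20 and 6.00 to 9.13% at ZT8. The 14 hepatocyte markers tested summed to 99965 to 120466 CPM at ZT20 and 82012 to 107882 CPM at ZT8. ZT20 replicate 2 stood apart from its group. Its log2 CPM correlated with those of the other ZT20 libraries at r = 0.961 to 0.964 across the 14555 genes, against 0.980 to 0.981 among those 3 and 0.972 to 0.984 among the ZT8 libraries. In it 413 genes lay at least 2-fold above all 3 group mates and 203 at least 2-fold below. The other ZT20 libraries had 52 to 83 such genes above and 86 to 136 below. Calls are therefore given with all 8 libraries and without that library.

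In the phase-shifted livers 1507 of 14555 genes (10.4%) differed between ZT20 and ZT8 at an adjusted p under 0.05 in edgeR's quasi-likelihood test, 844 of them higher at ZT20 (5.80%) and 663 lower (4.56%). Of these, 575 changed at least 2-fold, 384 upward and 191 downward. Without ZT20 replicate 2, 1099 of 14753 genes (7.45%) were called, 581 higher (3.94%) and 518 lower (3.51%). In all, 1010 genes were called in the same direction both ways, 556 higher and 454 lower, 1 in opposite directions, 496 only with all 8 libraries and 88 only without replicate 2. Leaving out any 1 of the other 7 libraries gave 1134 to 1379 calls. Among the 288 higher genes that were not kept without replicate 2, 107 lay at least 2-fold above all group mates in that library. The median log2 fold change over all genes was 0.00 with and -0.01 without replicate 2. Fold changes are log2 of ZT20 over ZT8 throughout. The 4 ZT20 and 4 ZT8 values did not overlap in 1257 of the 1507 called genes, and in 17.5% of all genes tested.

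The activating limb of the clock was high at ZT20. Arntl (ENSMUSG00000055116, chromosome 7, 113207465 to 113314126, plus strand, mm10) stood at 24.3, 25.3, 30.7 and 26.6 CPM in the ZT20 livers, against 0.887, 0.527, 0.699 and 1.55 CPM in the ZT8 livers. Every ZT20 value lay far above every ZT8 value, and replicate 2 did not stand out. The log2 fold change was 4.84 (SE 0.36, adjusted p = 1.6e-12), and 4.87 without replicate 2. Clock, the partner of BMAL1, had 68.6, 63.9, 60.4 and 61.1 CPM at ZT20, against 22.2, 29.8, 18.6 and 35.6 CPM at ZT8, a log2 fold change of 1.26 (SE 0.16, adjusted p = 6.81e-07). Npas2, a paralog of Clock, had 1.39 to 6.56 CPM at ZT20 and 0 to 0.352 CPM at ZT8, where its values were near the level that a count of 0 allows. Rora, which encodes an activator at REV-ERB sites, did not pass (0.45, SE 0.16, adjusted p = 0.064), nor did Arntl2, a second BMAL gene that was near the detection limit.

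The repressor genes did not all change alike. Nr1d1 (ENSMUSG00000020889, chromosome 11, 98767932 to 98775333, minus strand) had 1.39, 2.48, 3.46 and 2.38 CPM at ZT20, against 83.3, 113, 89.0 and 148 CPM at ZT8. The groups were far apart, with a log2 fold change of -5.48 (SE 0.54, adjusted p = 2.23e-09) and -5.49 without replicate 2. It overlaps Thra on the opposite strand, which averaged 13.2 CPM at ZT20 and 10.1 CPM at ZT8, and whether the counting used strand is not given in the sources used here. Nr1d2 had 22.0, 15.4, 14.7 and 21.9 CPM at ZT20, against 123, 147, 98.7 and 114 CPM at ZT8, a fall of the same direction (-2.70, SE 0.33, adjusted p = 1.54e-07). Bhlhe41, which encodes the E-box repressor DEC2, changed by -3.75 (SE 0.51, adjusted p = 1.19e-06). Ciart, a repressor that binds the CLOCK and BMAL1 complex, had 2.73, 1.56, 0.742 and 0.887 CPM at ZT20, against 11.2, 14.1, 38.6 and 7.96 CPM at ZT8 (-3.59, SE 0.48, adjusted p = 1.09e-06). Among the Period genes Per3 fell, with 13.7, 10.1, 9.59 and 11.2 CPM at ZT20 and 33.8, 34.2, 40.5 and 23.0 CPM at ZT8 (-1.56, SE 0.31, adjusted p = 0.000512). Per1 missed the threshold narrowly (-1.38, SE 0.47) and its groups overlapped, with 7.39 to 17.9 CPM at ZT20 and 15.7 to 50.4 CPM at ZT8. Per2 had 23.0 to 36.9 CPM at ZT20 and 19.5 to 30.2 CPM at ZT8 (0.13, SE 0.37, adjusted p = 0.905).

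Cry1, the repressor that acts late in the cycle, was the only repressor gene called higher. It had 54.2, 47.4, 61.9 and 57.0 CPM at ZT20, against 8.46, 3.93, 7.22 and 5.88 CPM at ZT8. All 4 ZT20 livers lay above all 4 ZT8 livers, with a log2 fold change of 3.11 (SE 0.30, adjusted p = 7.5e-10) and 3.18 without replicate 2. Cry2, its paralog, had 32.2 to 45.2 CPM at ZT20 and 44.3 to 50.6 CPM at ZT8, which overlapped and did not pass (-0.28, SE 0.15, adjusted p = 0.278). Bhlhe40, the DEC1 gene, did not pass either (-0.36, SE 0.31, adjusted p = 0.575). In total 1 of 10 repressors rose and 5 fell, with a median of -1.47, and the same numbers passed without replicate 2 (median -1.36). Among all genes tested 5.80% were called higher and 4.56% lower with all libraries.

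Output factors of the clock changed in the same 2 directions. Dbp (ENSMUSG00000059824, chromosome 7, 45705088 to 45710203, plus strand) had 4.70, 3.56, 2.78 and 3.66 CPM at ZT20, against 155, 156, 191 and 141 CPM at ZT8. The fold change was nearly as large as that of Nr1d1, at -5.45 (SE 0.52, adjusted p = 1.4e-09). Sphk2, which overlaps Dbp on the opposite strand, averaged 57.2 CPM at ZT20 and 30.6 CPM at ZT8. Tef had 114, 71.3, 104 and 107 CPM at ZT20, against 256, 254, 243 and 228 CPM at ZT8 (-1.31, SE 0.18, adjusted p = 1.86e-06). Hlf was called with all libraries (-0.47, SE 0.14, adjusted p = 0.0275). It was not called without ZT20 replicate 2, 3 or 4 (-0.42, -0.41 and -0.46) or without ZT8 replicate 2 or 4 (-0.45 and -0.39). Nfil3, whose product competes for the same sites, had 43.4, 38.4, 53.7 and 51.4 CPM at ZT20, against 11.2, 8.26, 7.86 and 10.2 CPM at ZT8 (2.31, SE 0.32, adjusted p = 1.64e-06). Of 16 members of the list of PAR bZIP factors and known output genes, 7 rose and 5 fell, as they did without replicate 2. The shares over all genes tested were 5.80% higher and 4.56% lower with all libraries. Usp2, a deubiquitinase gene, fell (-1.80, SE 0.29), and Avpr1a, a vasopressin receptor gene, rose (1.88, SE 0.26).

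**Figure D1:**
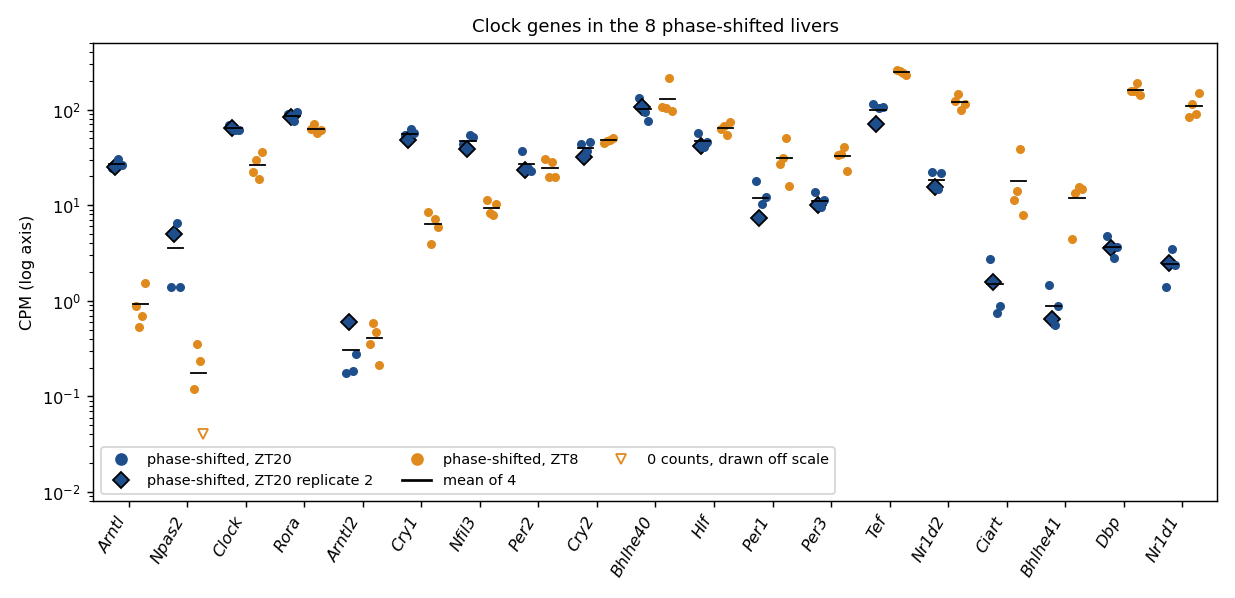
CPM on a log axis of clock genes in the 8 phase-shifted livers, each point 1 library and each bar the mean of 4, with ZT20 in blue left of ZT8 in orange and ZT20 replicate 2 as a diamond. Arntl, Cry1 and Nfil3 lie high at ZT20, and Nr1d1, Dbp and Ciart lie high at ZT8. The open triangle is the Npas2 library with 0 counts, drawn off the scale.

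The opposed directions can be set beside short motifs in the promoters, taken from RefSeq on GRCm38.p6 (the build also called mm10) as 250 bases before to 50 bases after each transcript start. Both strands were searched for the E-box CACGTG, for the REV-ERB and ROR site as TAGGTCA or TGGGTCA, and for the D-box of the PAR bZIP factors as TTATGTAA or TTACGTAA, and none of these overlapped another in the sequences shown. Below are promoters of 2 genes that rose and 2 that fell, chosen after the search because they hold these motifs, in transcript direction with the motifs in capitals. The Arntl promoter is chr7:113207261-113207560, plus strand, and the Nfil3 promoter is chr13:52980990-52981289, minus strand. The Ciart promoter is chr3:95882179-95882478, minus strand, and the Per3 promoter is chr4:151044616-151044915, minus strand.
Arntl: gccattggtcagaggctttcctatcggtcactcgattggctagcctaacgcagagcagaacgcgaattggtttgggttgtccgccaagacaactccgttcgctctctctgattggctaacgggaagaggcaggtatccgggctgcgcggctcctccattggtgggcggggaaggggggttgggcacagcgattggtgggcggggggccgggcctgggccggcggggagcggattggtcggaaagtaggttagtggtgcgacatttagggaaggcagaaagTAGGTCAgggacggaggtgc
Nfil3: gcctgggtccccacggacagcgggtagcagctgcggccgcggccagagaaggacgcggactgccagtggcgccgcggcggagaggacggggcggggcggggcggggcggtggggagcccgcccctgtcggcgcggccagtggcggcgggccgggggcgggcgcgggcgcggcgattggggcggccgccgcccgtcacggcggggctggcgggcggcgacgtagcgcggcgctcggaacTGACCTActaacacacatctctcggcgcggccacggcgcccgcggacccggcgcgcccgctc
Ciart: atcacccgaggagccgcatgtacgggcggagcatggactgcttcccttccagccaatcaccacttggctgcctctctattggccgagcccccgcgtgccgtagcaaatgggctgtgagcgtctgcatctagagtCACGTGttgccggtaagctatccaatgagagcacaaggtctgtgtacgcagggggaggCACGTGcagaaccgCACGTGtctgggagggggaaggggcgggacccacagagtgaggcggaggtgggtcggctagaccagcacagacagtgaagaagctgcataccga
Per3: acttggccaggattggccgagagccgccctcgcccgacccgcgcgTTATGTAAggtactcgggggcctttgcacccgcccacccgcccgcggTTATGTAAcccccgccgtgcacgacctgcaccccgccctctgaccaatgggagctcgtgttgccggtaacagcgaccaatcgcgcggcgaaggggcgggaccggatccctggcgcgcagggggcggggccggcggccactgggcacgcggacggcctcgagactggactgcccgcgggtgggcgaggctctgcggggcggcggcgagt

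Arntl, up 4.84 on the log2 scale, holds the REV-ERB and ROR site 30 bases after the start, and Nfil3, up 2.31, holds its reverse complement 12 bases before it. Ciart, down 3.59, holds 3 E-boxes, at 116, 58 and 44 bases before the start. Per3, down 1.56, holds 2 D-boxes, at 205 and 158 bases before the start. Over the 351 promoters that could be matched among the 454 genes called lower both ways, 71 (20.2%) held the E-box. It was in 43 (10.1%) of the 424 matched among the 556 called higher, in 11.5% of the 10565 matched among all tested genes and in 8.09% of all 27025 genes with a promoter. Among the 109 matched genes that fell at least 2-fold, 28 (25.7%) held it. The REV-ERB and ROR site was in 45 (10.6%) of the higher genes, 21 (5.98%) of the lower genes, 6.39% of all tested genes and 7.35% of all promoters. The D-box was rare, in 1.18% of the higher genes, 1.14% of the lower genes and 0.880% of all tested genes. These shares describe letters in the window and were not tested. Cry1, up 3.11, holds an E-box 60 bases before the start, and none of the motifs was found in the windows of Nr1d1, Dbp, Nr1d2 and Rgs16, which fell, or in that of a second Arntl start.

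Beyond the genes named so far, several others also changed strongly. Rgs16 (ENSMUSG00000026475, chromosome 1, 153740349 to 153745468, plus strand), a regulator of G protein signalling, fell the most among the named genes. It had 0.116, 1.46, 1.05 and 1.22 CPM at ZT20, against 112, 145, 35.5 and 52.5 CPM at ZT8. Both groups spread widely on the log scale and did not overlap (-6.47, SE 1.12, adjusted p = 9.61e-05). Gpcpd1, a glycerophosphocholine phosphodiesterase gene, had 26.4, 21.5, 60.1 and 52.3 CPM at ZT20, against 361, 492, 386 and 340 CPM at ZT8 (-3.30, SE 0.50, adjusted p = 1.17e-05). Trib3, a pseudokinase gene of stress signalling, changed by -2.59 (SE 0.47) and Slc5a6, the multivitamin transporter gene, by -2.53 (SE 0.21). Slc5a6 overlaps Atraid on the opposite strand, which averaged 58.7 CPM at ZT20 and 59.0 CPM at ZT8. Clec2h, Pcsk4 and Unc93a2 also fell, with log2 fold changes of -2.86, -2.72 and -2.47.

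Among the higher genes Tubb2a, a beta tubulin gene, had 177, 225, 145 and 122 CPM at ZT20, against 15.3, 12.6, 16.4 and 12.9 CPM at ZT8. Its ZT8 livers lay close together and far below the ZT20 livers (3.55, SE 0.35, adjusted p = 2.23e-09). Pitx3, a homeobox gene, ranged from 4.58 to 25.2 CPM at ZT20 and from 0.118 to 2.08 CPM at ZT8 (4.12, SE 0.84, adjusted p = 0.000789). Pdk4, which restrains pyruvate oxidation, had 15.8, 51.0, 29.8 and 32.9 CPM at ZT20, against 2.96, 3.40, 2.50 and 4.86 CPM at ZT8 (3.23, SE 0.57, adjusted p = 0.000104). Chka, the choline kinase gene, had 69.7, 92.8, 87.5 and 47.9 CPM at ZT20, against 8.64, 9.67, 12.0 and 11.6 CPM at ZT8. That is a log2 fold change of 2.83 (SE 0.31, adjusted p = 2.39e-08). Lgalsl and Lrfn3 rose by 2.77 (SE 0.22) and 2.83 (SE 0.22), and Acnat2, an acyltransferase gene, and Dhrs9, a dehydrogenase gene, by 3.43 (SE 0.53) and 2.86 (SE 0.47). Chrna4, a nicotinic receptor subunit gene, rose by 3.50 (SE 0.87) with the highest value, 58.6 CPM, in replicate 2. Cdkn1a, which encodes the cell cycle inhibitor p21, had 10.0, 45.6, 5.44 and 4.82 CPM at ZT20, against 1.18, 0.937, 1.28 and 1.12 CPM at ZT8. Replicate 2 carried the highest value by far, and the log2 fold change was 3.86 (SE 0.68) with it and 2.57 (SE 0.60) without it.

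**Figure D2:**
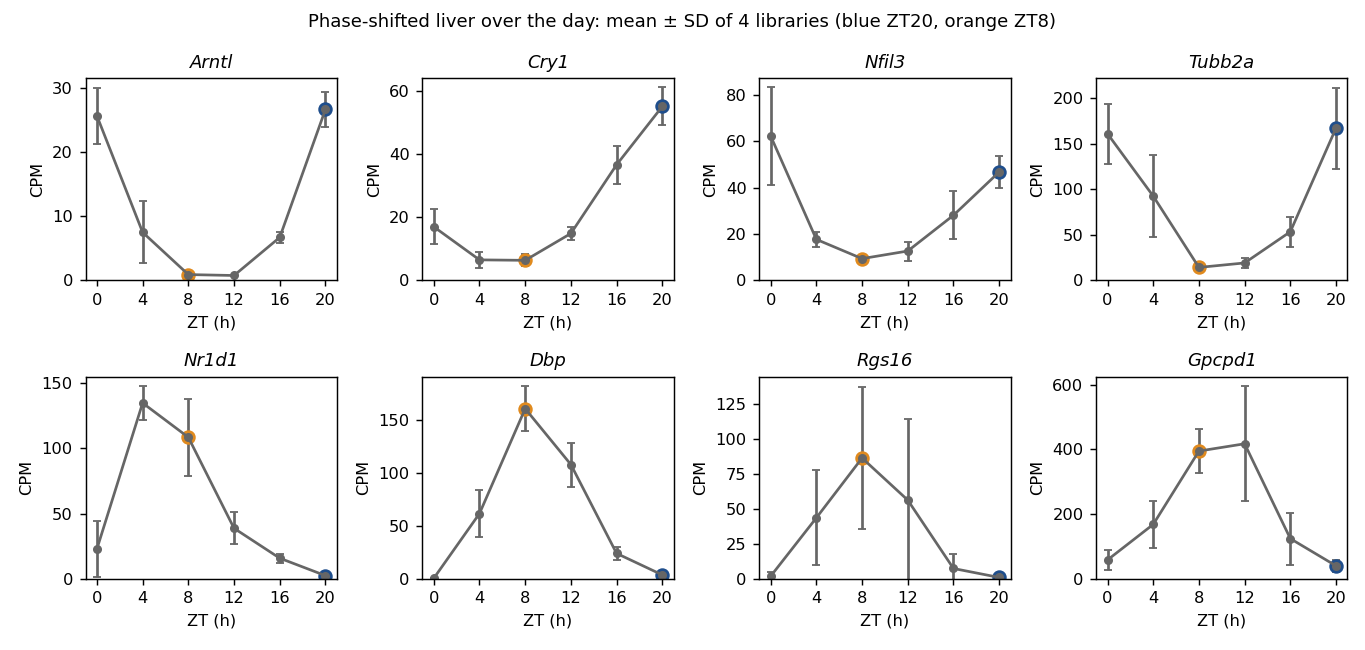
Mean CPM of 8 genes over the 6 labelled times of the phase-shifted arm, with error bars of 1 SD over 4 libraries drawn down to 0 at most, ZT20 ringed in blue and ZT8 in orange. Arntl averaged 26.7 CPM at ZT20 and 0.916 CPM at ZT8, and Dbp averaged 3.68 CPM at ZT20 and 161 CPM at ZT8.

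Set in the whole day of the shifted arm, the genes called both ways mostly had an extreme at ZT20 or ZT8, which the choice of this contrast favours. Of the 556 higher genes, 53.8% had their highest group mean at ZT20, 26.6% at ZT0 and 18.3% at ZT16, and 66.0% had their lowest at ZT8. Of the 454 lower genes, 74.0% had their highest mean at ZT8 and 16.3% at ZT12, and 57.0% their lowest at ZT20. Among all tested genes 18.1% were highest at ZT20 and 18.0% at ZT8. Nr1d1 was highest at ZT4, with 135 ± 12.8 CPM (SD, n = 4), and Nfil3 at ZT0, with 62.2 ± 21.0 CPM (SD, n = 4).

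Genes of fatty acid synthesis were higher at ZT20, but 6 of those calls were lost without replicate 2. With all libraries 11 of 17 rose and 0 fell, beside 5.80% and 4.56% of all genes tested. The list had a median log2 fold change of 1.33 beside 0.00 over all genes. Without ZT20 replicate 2, 5 rose (median 0.78), and 6 did so without ZT8 replicate 2, without ZT8 replicate 4 or with the 8 libraries fitted alone. With the compared groups fitted alone and ZT20 replicate 2 left out, a fit chosen after seeing the data, 8 rose (median 0.78). Acly, which makes cytosolic acetyl-CoA, had 680, 1157, 747 and 742 CPM at ZT20, against 313, 200, 192 and 183 CPM at ZT8 (1.91, SE 0.42, adjusted p = 0.00154, and 1.70 without replicate 2). Acacb, an acetyl-CoA carboxylase gene, had 202, 260, 293 and 262 CPM at ZT20, against 119, 81.3, 95.9 and 80.0 CPM at ZT8, and replicate 2 was within its group (1.44, SE 0.32, adjusted p = 0.00179). Elovl3, an elongase gene, rose by 2.22 (SE 0.48), though replicate 2 had the lowest ZT20 value at 137 CPM and overlapped the ZT8 group, whose highest was 159 CPM. Pnpla3, a lipid droplet protein gene, had 1.72 to 10.2 CPM at ZT20 and 0.0592 to 0.234 CPM at ZT8 (4.76, SE 0.97, adjusted p = 0.000672). Its ZT8 values are near the level that a count of 0 allows.

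Fasn, Scd1 and Elovl6 are named after their values were seen, because replicate 2 exceeded its group mates by so much in them. Fasn, the fatty acid synthase gene, had 1125, 3948, 859 and 745 CPM at ZT20, against 449, 264, 526 and 359 CPM at ZT8. Its log2 fold change was 2.06 (SE 0.59, adjusted p = 0.0166). It was 1.19 and not called without ZT20 replicate 2, and likewise not called without ZT8 replicate 2 (1.91) or ZT8 replicate 4 (2.01). Scd1, the stearoyl-CoA desaturase gene, had 10657, 34222, 8757 and 8449 CPM at ZT20, against 4339, 4937, 7354 and 4569 CPM at ZT8, and its fold change was 1.55 with and 0.81 without replicate 2, where it was not called. Elovl6 followed the same pattern, with 640 CPM in replicate 2 and 185 to 280 CPM in the other ZT20 livers (1.34 with, 0.78 and not called without). Thrsp, a lipogenic gene, was close in all 4 ZT20 livers, at 1148, 1223, 1040 and 802 CPM, against 278, 109, 404 and 99.9 CPM at ZT8. Its fold change was 2.24 (SE 0.60, adjusted p = 0.011). It was not called without ZT8 replicate 2 (2.02) or ZT8 replicate 4 (2.00).

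Cholesterol synthesis genes had 4 of 23 members higher and 0 lower, with a median of 0.76, and 3 higher without replicate 2 (median 0.62). The count was 2 higher without ZT8 replicate 2 or ZT8 replicate 4, and 2 higher and 1 lower without ZT20 replicate 3. Insig2, which retains the sterol sensor in the endoplasmic reticulum, had 223, 309, 259 and 251 CPM at ZT20, against 63.4, 114, 89.0 and 137 CPM at ZT8 (1.37, SE 0.22, adjusted p = 2.81e-05). Pmvk, a mevalonate pathway kinase gene, had 110, 152, 129 and 79.5 CPM at ZT20, against 45.5, 23.8, 48.9 and 39.5 CPM at ZT8 (1.58, SE 0.33, adjusted p = 0.00101). In both genes the groups did not overlap. Fatty acid oxidation and PPARA target genes mostly did not pass, with 1 of 24 higher (Pdk4) and 3 lower. All genes tested had 5.80% higher and 4.56% lower. Cpt1a, which imports fatty acids into mitochondria, had 239, 283, 256 and 282 CPM at ZT20, against 569, 628, 614 and 777 CPM at ZT8, so it was lower at ZT20 in every liver (-1.29, SE 0.28, adjusted p = 0.00126).

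Carbohydrate genes changed in both directions. In the list of glycolysis and fructose entry 8 of 17 rose and 2 fell, with a median of 0.41, and 4 rose and 2 fell without ZT20 replicate 2 (median 0.40). The higher count was 4 without ZT8 replicate 4, and 5 without ZT20 replicate 3, ZT20 replicate 4 or ZT8 replicate 2. It was also 4 with no filter on low counts. Tpi1, triosephosphate isomerase, had 469, 583, 501 and 431 CPM at ZT20, against 352, 299, 378 and 274 CPM at ZT8 (0.61, SE 0.12, adjusted p = 0.000476), and Eno1, enolase, rose by 0.53 (SE 0.11). Slc2a2, the GLUT2 glucose transporter gene, fell, with 271, 314, 329 and 288 CPM at ZT20, against 584, 588, 539 and 505 CPM at ZT8 (-0.88, SE 0.15, adjusted p = 5.49e-05). Of 15 gluconeogenesis genes, G6pc and Tat rose and 0 fell, beside 5.80% higher and 4.56% lower among all genes tested. G6pc, the last enzyme of glucose release, had 309, 349, 731 and 745 CPM at ZT20, against 181, 141, 87.5 and 140 CPM at ZT8 (1.96, SE 0.47, adjusted p = 0.00405).

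In glycogen metabolism 2 of 15 rose and 3 fell, beside 5.80% and 4.56% of all genes tested. Gys2, the liver glycogen synthase gene, had 172, 131, 129 and 167 CPM at ZT20, against 415, 432, 474 and 332 CPM at ZT8. Its groups were well apart (-1.46, SE 0.22, adjusted p = 8.84e-06). Ppp1r3b and Ppp1r3c, subunits that target a phosphatase to glycogen, rose by 2.57 (SE 0.55, adjusted p = 0.00117) and 1.89 (SE 0.33, adjusted p = 7.64e-05). Ppp1r3b had 257 to 497 CPM at ZT20 and 25.5 to 119 CPM at ZT8. Without replicate 2 the counts were 2 higher and 4 lower.

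In the urea cycle and one-carbon lists more genes were called higher than lower at ZT20. Of all genes tested 5.80% were called higher and 4.56% lower. In the list of the urea cycle and its carriers 4 of 14 rose and 1 fell, with 3 and 1 without replicate 2. Asl, argininosuccinate lyase, had 937, 585, 976 and 848 CPM at ZT20, against 532, 440, 522 and 411 CPM at ZT8, and here replicate 2 was the lowest of the ZT20 livers (0.81, SE 0.16, adjusted p = 0.000483). Slc25a15, the mitochondrial ornithine carrier gene, rose by 0.69 (SE 0.12) and Ass1, argininosuccinate synthase, by 0.69 (SE 0.18). Slc7a2, a cationic amino acid transporter gene, fell, with 499, 254, 431 and 604 CPM at ZT20 and 1220, 1472, 1003 and 1120 CPM at ZT8 (-1.43, SE 0.34, adjusted p = 0.00401). Of the 20 genes of the serine, glycine and one-carbon list, 5 rose and 0 fell (median 0.39), and 6 rose without replicate 2 (median 0.49). Gldc, of the glycine cleavage system, rose by 1.18 (SE 0.23) and Psph, the last enzyme of serine synthesis, by 1.06 (SE 0.17). Nnmt, which methylates nicotinamide, had 224, 112, 168 and 142 CPM at ZT20, against 89.3, 71.7, 67.6 and 85.5 CPM at ZT8 (1.04, SE 0.19, adjusted p = 0.000121). The genes Azin1 and Azin2 were lower, with log2 fold changes of -0.86 (SE 0.12) and -3.00 (SE 0.41). They encode inhibitors of antizyme, which itself restrains polyamine synthesis. Of 17 genes in the list of NAD and polyamine metabolism, 3 rose and 3 fell, both with and without replicate 2.

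Chaperone genes rose at ZT20 in equal number with and without replicate 2, 9 of 22 and 0 lower, with medians of 0.53 and 0.42. Hsp90aa1, an inducible HSP90 gene named after its values were seen, had 459, 547, 278 and 403 CPM at ZT20, against 125, 103, 92.4 and 73.2 CPM at ZT8 (2.10, SE 0.34, adjusted p = 3.25e-05). Hsp90ab1 had 1270, 1158, 1118 and 1342 CPM at ZT20, against 730, 702, 634 and 655 CPM at ZT8 (0.85, SE 0.13, adjusted p = 1.98e-05). The co-chaperone genes Fkbp4 and Stip1 rose by 1.29 (SE 0.17) and 1.22 (SE 0.20), and Hspa4l by 1.60 (SE 0.25). Of 19 autophagy and lysosome genes 5 fell with all libraries and 3 without ZT20 replicate 2, with 0 higher either way. Gabarapl1, of the LC3 family, had 152, 124, 216 and 211 CPM at ZT20, against 394, 441, 429 and 464 CPM at ZT8, with no overlap (-1.30, SE 0.22, adjusted p = 4.11e-05). Among glucocorticoid targets Ddit4, an inhibitor of mTOR signalling, rose by 2.31 (SE 0.41) and Tat by 0.91 (SE 0.23), and 3 of 15 rose in all. With all 48 libraries fitted together, no member passed among 24 cytosolic ribosomal protein genes, 16 NRF2 and antioxidant genes or 15 genes of the mitochondrial genome. Of all genes tested 10.4% passed in that fit.

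**Figure D3:**
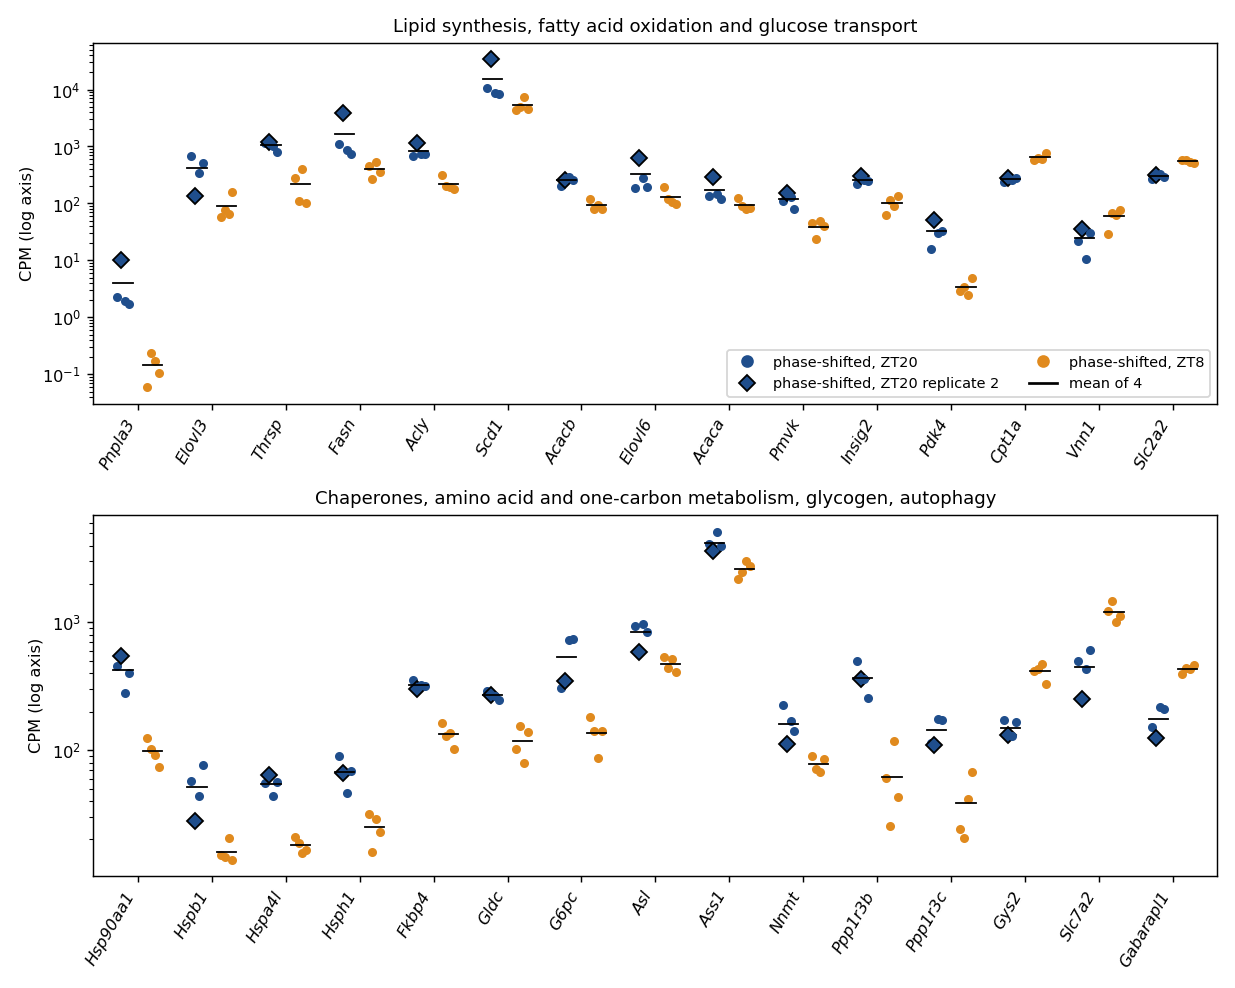
CPM on log axes of metabolic, chaperone and autophagy genes in the 8 phase-shifted livers, each point 1 library and each bar the mean of 4, with ZT20 in blue left of ZT8 in orange and ZT20 replicate 2 as a diamond. The diamond stands well above its group in Fasn (3948 CPM) and Scd1 (34222 CPM) and within or below it in Acacb (260 CPM) and Asl (585 CPM).

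Proliferation genes had their high ZT20 values in 1 library. Of all genes tested 5.80% were called higher and 4.56% lower with all 8 libraries. In the same fit 18 of 22 cell cycle and mitosis genes rose at ZT20 and 0 fell, with a median of 2.17. These calls also depended on the test, with 12 in DESeq2, 1 in limma (median 0.78) and 0 where the 8 libraries were fitted alone (median 2.11). Without ZT20 replicate 2, 0 rose and 1 fell, with a median of -0.51, while 11 rose without ZT8 replicate 4. Mki67, a marker of cycling cells, had 1.92, 84.0, 0.680 and 1.83 CPM at ZT20, against 2.72, 5.39, 2.68 and 2.83 CPM at ZT8. Replicate 2 alone lay above the ZT8 livers, while the other 3 ZT20 livers lay below them. Top2a, a DNA topoisomerase gene, had 1.57, 71.9, 1.30 and 1.05 CPM at ZT20, against 2.72, 3.69, 2.27 and 2.19 CPM at ZT8, and Cdk1, the mitotic kinase gene, had 1.45, 53.9, 0.742 and 1.77 CPM at ZT20, against 2.19, 1.05, 1.63 and 1.02 CPM at ZT8. The log2 fold changes with all libraries were 2.70 for Mki67 (SE 0.75), 2.80 for Top2a (SE 0.73) and 3.30 for Cdk1 (SE 0.74), and without replicate 2 they were -1.20, -1.05 and -0.15, none of them called. Fitted without the other groups and without replicate 2, 3 members were called lower, Top2a among them (-1.05, adjusted p = 0.0423). Summed over the list, replicate 2 held 865 CPM and the median of the ZT20 livers was 101 CPM, against 107 to 125 CPM in the ZT8 livers. The gene that fell without replicate 2 was Ccne1, a G1 cyclin gene named after its values were seen, with 0.755, 5.34, 0.371 and 0.887 CPM at ZT20 and 3.49, 1.76, 5.18 and 2.08 CPM at ZT8 (-2.20 without and -0.75 with replicate 2). Anln, a cytokinesis gene also named after its values were seen, was called in opposite directions, at 2.12 with and -1.51 without replicate 2. It had 0.639, 20.9, 0.309 and 0.388 CPM at ZT20, against 1.42, 1.82, 0.990 and 0.909 CPM at ZT8. Ect2, a cytokinesis gene, and Cdca3, a mitotic gene, were likewise called only with replicate 2 (3.12 and 2.68, and 0.67 and -0.65 without it). The steroid hydroxylase gene Cyp17a1, with 84.7 CPM in replicate 2 and 8.21 to 35.2 CPM in the other ZT20 livers, was lost too (2.73 with, 2.07 without).

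**Figure D4:**
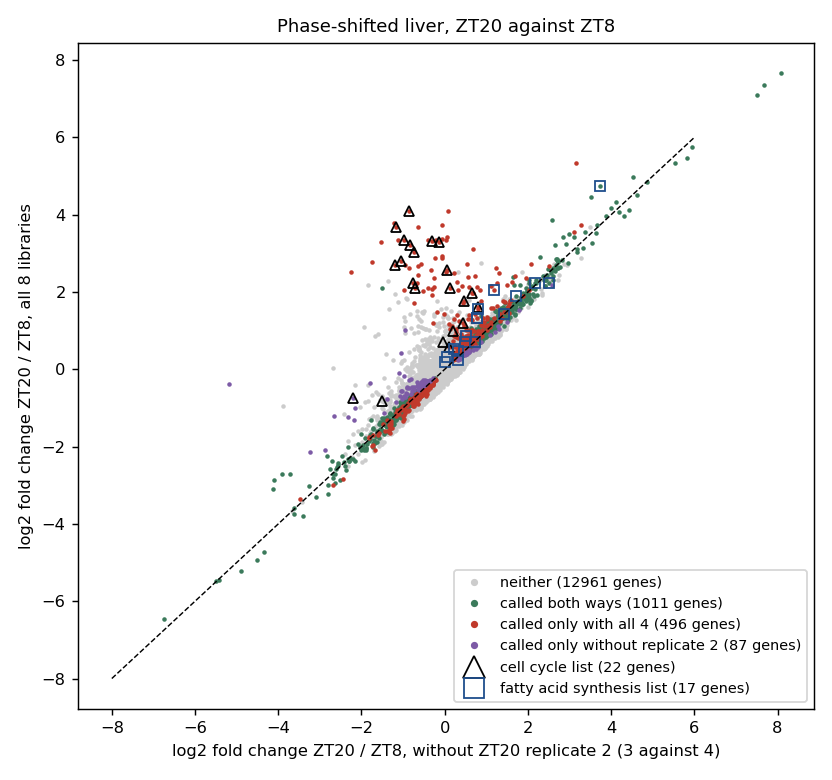
Log2 fold change of ZT20 over ZT8 with all 8 libraries (y axis) against that without ZT20 replicate 2 (x axis) for the genes tested in both fits, coloured by where they were called, with the cell cycle list as triangles and the fatty acid synthesis list as squares, and equality dashed. The triangles rise off the line, with a list median of 2.17 with and -0.51 without that library.

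Markers of other liver cells were checked beside these results, in which 10.4% of all genes tested were called. Of 13 Kupffer cell markers 0 passed, and their summed level was 514 to 669 CPM at ZT20 and 290 to 1098 CPM at ZT8. Sinusoidal endothelial markers (0 of 13 called) summed to 360 to 553 CPM at ZT20 and 191 to 617 CPM at ZT8, and stellate cell and fibroblast markers (1 of 15 called, Hhip, lower) to 385 to 482 CPM at ZT20 and 440 to 535 CPM at ZT8. Markers of T, B and NK cells (0 of 14) and of neutrophils and monocytes (0 of 8) did not pass either. Of 9 cholangiocyte markers 1 was higher (Sox9, 1.03, SE 0.33), and of 8 erythroid markers 1 was lower (Klf1, -1.21, SE 0.34), neither of them called without replicate 2. Pericentral hepatocyte markers summed to 7444 to 13089 CPM at ZT20 and 15133 to 17423 CPM at ZT8, which did not overlap. Much of that sum was Cyp2e1, whose values follow. The mean log2 CPM of the list did overlap, at 7.08 to 7.35 at ZT20 and 7.33 to 7.61 at ZT8. Of these 14 markers 1 was called higher and 2 lower. There was 1 lower without ZT20 replicate 2, ZT8 replicate 1 or ZT8 replicate 4, and there were 5 with the 8 libraries fitted alone. Cyp2e1, a cytochrome P450 gene of ethanol metabolism, had 6438, 2312, 5674 and 6602 CPM at ZT20, against 8400, 8544, 7473 and 9505 CPM at ZT8. It was called with all libraries (-0.69, SE 0.21, adjusted p = 0.0283). It was not called without ZT20 replicate 2 (-0.44) or without ZT8 replicate 1, 2 or 4 (-0.70, -0.69 and -0.63). In bulk tissue, fewer cells of a type and less RNA per cell cannot be told apart. The part of these markers in the results above was not tested.

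The same time contrast was run in the 4 ZT20 and 4 ZT8 livers of the control arm. There 1903 genes (13.1%) were called, 813 higher (5.59%) and 1090 lower (7.49%). That count depended on the fit. With each arm's own 8 libraries fitted alone it was 203 in control and 1561 in phase-shifted livers, and without the libraries of high mitochondrial share 1019 in control and 2482 in phase-shifted livers. With all libraries, 688 were called in both arms, 45.7% of the phase-shifted list and 36.2% of the control list, and 685 of them had the same direction, 369 higher and 316 lower. Fitted alone, the arms shared 169 calls, 168 in the same direction. Across the 14555 genes the log2 fold changes of the arms had a Pearson r of 0.455, or 0.471 without replicate 2, and genes are not independent replicates. The sign was shared by 89.1% of the genes called in the phase-shifted arm and by 61.6% of all genes tested. It was shared by 94.3% of those also called without replicate 2 and by 78.7% of those not kept. Control log2 fold changes were 4.23 for Arntl, 3.08 for Cry1, -6.03 for Nr1d1, -5.49 for Dbp and -4.70 for Rgs16. The control count fell to 984 without control ZT20 replicate 1 and to 890 without control ZT8 replicate 2, which had high mitochondrial shares of 12.1% and 12.8%.

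List counts in the arms are given side by side, with fatty acid synthesis at 11 of 17 higher in phase-shifted and 2 of 17 higher in control livers, and medians of 1.33 and 0.15. Without ZT20 replicate 2 the phase-shifted count was 5 (median 0.78). Glycolysis had 8 higher and 2 lower in phase-shifted livers (4 and 2 without replicate 2), and 0 higher and 5 lower in control livers. The urea cycle list had 4 higher and 1 lower in phase-shifted livers, and 0 higher and 3 lower in control livers. The list of serine, glycine and one-carbon metabolism had 5 higher and 0 lower in phase-shifted livers, and 3 higher and 3 lower in control livers. The difference between the arms was tested gene by gene as an interaction, and 1 of 14555 genes passed (0.00687%), while 1708 (11.7%) had an unadjusted p under 0.05. That p was reached by 5 of 17 genes of fatty acid synthesis and 9 of 17 of glycolysis. It was reached by 6 of 14 of the urea cycle list and 8 of 20 of the serine, glycine and one-carbon list. Lists outside these pathways also held many, with 10 of 22 cell cycle and mitosis genes and 7 of 16 NRF2 and antioxidant genes. So did 2 lists of cell type markers, with 7 of 15 for stellate cells and fibroblasts and 6 of 14 for periportal hepatocytes. Others held few, with 0 of 10 core clock repressors, 0 of 13 Kupffer cell markers and 0 of 13 sinusoidal endothelial markers. In control livers the median log2 fold changes of Kupffer, endothelial and stellate markers were 0.52, 0.53 and 0.35. In phase-shifted livers they were -0.13, -0.02 and -0.12. The interaction counts were 41 in DESeq2 and 1 in limma. The 41 held 5 glycolysis genes, Tkfc and Khk among them, and 4 of the urea cycle list (Asl, Ass1, Arg1 and Slc25a15). They held 0 of the fatty acid synthesis list and 0 of the serine, glycine and one-carbon list. Whether the list counts differ between the arms was not tested. The interaction call was Tkfc (ENSMUSG00000034371, chromosome 19, 10592200 to 10604258, minus strand), a kinase gene of fructose metabolism. It had 431, 472, 423 and 509 CPM at ZT20 and 376, 309, 365 and 298 CPM at ZT8 in phase-shifted livers. In control livers it had 297, 284, 270 and 320 CPM at ZT20 and 450, 514, 455 and 558 CPM at ZT8. The time difference thus ran in opposite directions, at 0.44 (SE 0.14) in phase-shifted and -0.76 (SE 0.14) in control livers. The difference of 1.20 (SE 0.20, adjusted p = 0.00574) passed in 26 of 26 alternatives run (adjusted p 2.21e-05 to 0.0377). Its phase-shifted change alone was not called without ZT20 replicate 2 or 4 (0.43 and 0.39) or without ZT8 replicate 2 or 4 (0.41 and 0.39).

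List members close to the threshold of the interaction were Khk, the ketohexokinase of fructose entry (1.08), Asl (1.03), Nnmt (1.18) and the translation factor gene Eif4a2 (-0.58), each with an adjusted p of 0.0708. Of these Khk is named after its values were seen. Without ZT20 replicate 2, 6 genes passed, Tkfc and Asl (1.16) and Nnmt (1.32) among them. Khk passed without ZT20 replicate 1 (1.17), and without control ZT20 replicate 4, control ZT8 replicate 3 or control ZT8 replicate 4. Eif4a2 passed without ZT20 replicate 3 (-0.66) or control ZT20 replicate 4, and Asl also without control ZT8 replicate 4. All 4 passed in DESeq2 (adjusted p 0.00486 to 0.0104). Leaving out other single libraries gave 1 to 12 calls, with 5 without ZT20 replicate 3, 12 without control ZT20 replicate 4, and among the control ZT8 libraries 6 without replicate 3 and 10 without replicate 4.

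**Figure D5:**
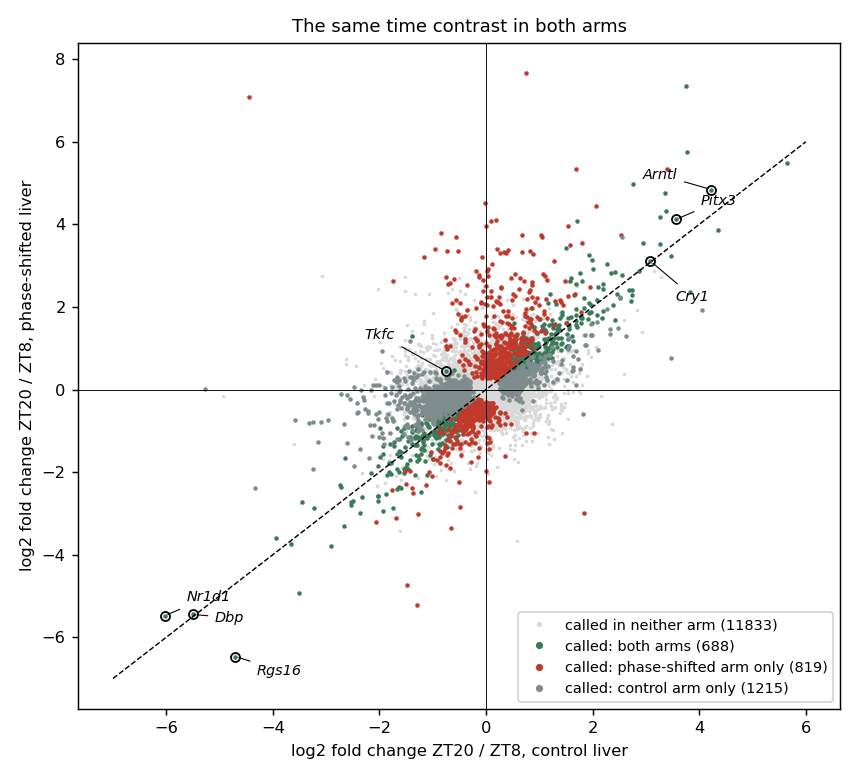
Log2 fold change of ZT20 over ZT8 in phase-shifted liver (y axis) against that in control liver (x axis) for 14555 genes, coloured by the arm in which each was called, with equality dashed. Arntl lies at 4.84 in phase-shifted and 4.23 in control liver, and Tkfc lies at 0.44 in phase-shifted and -0.76 in control liver.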

How the data were processed

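Liver RNA of 48 samples was extracted with TRIzol, and libraries were sequenced, mapped and quantified by a company, per the labels. The deposited table gives unnormalized whole-number counts for 54532 genes, with identifiers and mm10 coordinates. The build is that of the submitters' processing notes. The aligner, the counter and the strand setting were not given in the sources used here. The deposited FPKM table was not used here, and the serum metabolites were not analysed here.

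Counts were fitted in edgeR 4.0.16 (R 4.3.3) with filterByExpr, TMM scaling and robust quasi-likelihood fits of 12 group means over 48 libraries, which share 1 estimate of the spread. P-values were adjusted by Benjamini-Hochberg across every tested gene and called under 0.05. Alternatives were DESeq2 1.42.0, limma 3.58.1, other scalings and filters, the 8 libraries alone and each library left out. Library pairs within groups differed beyond counting error, at 16.5 to 100 chi-square units per gene. On simulated counts of 14353 genes the ZT20 against ZT8 fit recovered 88 of 100 genes changed by a log2 of 2 and 58 of 100 changed by a log2 of 1, with 9 false among 155 calls. Those counts were drawn independently at the fitted trend of the spread, and no library was made to stand apart. The false calls therefore do not give the error rate for the real libraries.

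The samples, gene lists and motifs were chosen with earlier results of these data known. Genes named are the 12 higher and 12 lower protein coding genes with the largest fold change among those called with and without ZT20 replicate 2, at a mean log2 CPM of at least 1 and without overlap between groups. Added are the core clock genes, up to 4 members of each described list with the smallest p, the genes with the smallest p for the difference between arms, up to 6 genes lost without replicate 2, and Mki67, Top2a and Cdk1. Some genes that this rule names are not reported here.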

Additional observations from a re-analysis of the deposited data

Results flagged for a closer look

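On log2 CPM in groups of 4 libraries, a value was marked where its gap to the nearest of the other 3 took up more of the range of the group than the 95% critical value of Dixon's test. Of 88 such tests over 44 genes 8 were marked, and chance marks about 1 in 20 groups. Genes named because their calls were lost without ZT20 replicate 2 were among the 44. The number marked therefore cannot be set against that rate. On CPM without logs 11 would be marked, 6 of them in ZT20 replicate 2 (Cdkn1a, Cdk1, Ect2, Top2a, Mki67 and Cdca3). In ZT20 replicate 2, Top2a stood at 71.9 CPM (1.05 to 1.57 CPM in the other ZT20 livers) and Cdca3 at 42.8 CPM (0.866 to 1.45 CPM). In ZT20 replicate 1, Rgs16 stood at 0.116 CPM, under the level that a count of 0 allows, beside 1.05 to 1.46 CPM, and Per2 at 36.9 CPM beside 23.0 to 24.2 CPM. Among the ZT8 livers, Bhlhe41 was at 4.44 CPM in replicate 1 (13.3 to 15.3 CPM in the others) and Cdca3 at 0.947 CPM in replicate 1 (1.98 to 2.14 CPM). Mki67 was at 5.39 CPM in ZT8 replicate 2 (2.68 to 2.83 CPM in the others) and Bhlhe40 at 212 CPM in ZT8 replicate 3 (97.4 to 107 CPM). Tkfc is listed because its time difference was not the same in the 2 arms by the interaction test, with a difference of 1.20 (SE 0.20, adjusted p = 0.00574 in edgeR, higher at ZT20 in the phase-shifted arm and lower in control).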

How the results depend on the processing

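The phase-shifted count of 1507 genes was 1706 by DESeq2, 1421 by limma, 1111 with no filter on low counts, 1561 from the 8 libraries alone, 1588 from those without ZT20 replicate 2 (chosen after seeing the data) and 1099 to 1379 with 1 library left out. It was 2142 with mitochondrial share as a covariate and 575 with a 2-fold minimum. Without the 8 libraries of high mitochondrial share, none of which is in this comparison, it was 2482. Without ZT20 replicate 2, 6 named genes changed sign, to -0.85 for Cdc20, -0.15 for Cdk1, -0.98 for Ccna2, -1.05 for Top2a, -1.20 for Mki67 and -0.65 for Cdca3. With only the compared groups fitted, again without that library, they were -0.84, -0.14, -0.97, -1.05, -1.19 and -0.64 in the same order. With any other library left out they reached up to 4.50, 3.69, 3.74, 3.20, 3.10 and 3.07. The control count of 1903 was 203 from its own 8 libraries, 1220 with no filter, 3181 with mitochondrial share as a covariate, 1019 without the high mitochondrial libraries, 519 with a 2-fold minimum and 890 to 2102 with 1 library left out. The interaction count of 1 was 41 by DESeq2, 196 with mitochondrial share as a covariate, 2 without the high mitochondrial libraries (Tkfc among them) and 1 to 12 with 1 library left out. For these changes the cause was not tested. The E-box share of lower genes was 71.8% with the core CANNTG, which is also in 68.2% of all tested genes. Equal replicate numbers did not pair the libraries (r of deviations -0.03 to 0.13 for equal numbers, -0.13 to 0.06 for unequal ones). A replicate block gave 1473 phase-shifted, 1822 control and 1 interaction calls.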
